A study of Mus musculus with 16 samples.

Results

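Gdpd3 and 4 genes that lie beside it on mouse chromosome 7 (Coro1a, Mapk3, Ypel3 and Ppp4c) were followed in splenic B cells, 5 rows of the 43432 gene rows of the authors' RNA-seq table. Gdpd3 was chosen because its RNA was higher in KO than in Flox cells, so its values are a description and no test is given for it. The 4 neighbours were chosen by position, to show how far along the chromosome a difference reaches. The cells came from spleens of mice whose strain is labelled C57B6L/J, and the KO cells lack miR-221 and miR-222, while the Flox cells, which the RNA-seq table calls WT, are the controls named for the floxed allele. The labels do not give the Cre driver, the age of the mice, or whether each replicate is a separate mouse, so the p-values here reflect only the spread among these samples, which may be technical. Before harvest all cells spent 4 days in a culture that mimics T cell help, in which CD40 was engaged by antibody at 500 ng/ml. The cytokines added were IL-4, at 25 ng/ml, and IL-21, at 10 ng/ml. RNA-seq was made from 4 KO and 4 Flox samples, and Ago2 HITS-CLIP, which sequences RNA fragments crosslinked to the miRNA carrier Ago2, from another 4 and 4.

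Gdpd3 encodes glycerophosphodiester phosphodiesterase domain containing 3, a membrane enzyme that acts as a lysophospholipase D: it removes the head group of a lysophospholipid and leaves lysophosphatidic acid, a signalling lipid, and it can also release N-acylethanolamines. Its neighbours have unrelated roles. Mapk3 encodes ERK1, a kinase at the end of the RAS-RAF-MEK cascade, Ypel3 a small zinc-binding protein of the yippee-like family linked to growth arrest, Ppp4c the catalytic subunit of protein phosphatase 4, and Coro1a the leukocyte coronin that binds actin filaments. A miRNA loaded into Ago2 pairs through its seed, bases 2 to 8, with matching sites in target RNAs and lowers their stability or translation.

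The mature miRNAs of the deleted locus are shown because their loss defines the KO group. Both have the same seed, in capitals, and differ after it (RefSeq, GRCm38.p6, chromosome X, minus strand, 19146307 to 19146329 and 19146901 to 19146923).
mmu-miR-221-3p: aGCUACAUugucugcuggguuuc
mmu-miR-222-3p: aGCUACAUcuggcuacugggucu
Sequence upstream of Gdpd3 and Ypel3 is shown because these genes lie in tandem on the plus strand and only the former was chosen for its difference. Each stretch runs from the first base of the RefSeq promoter entry to the last base before the gene's start in the authors' table, and capitals mark CpG dinucleotides, the sites of DNA methylation in mammals.
Gdpd3, GRCm38.p6 chr7:126766164-126766333, plus strand: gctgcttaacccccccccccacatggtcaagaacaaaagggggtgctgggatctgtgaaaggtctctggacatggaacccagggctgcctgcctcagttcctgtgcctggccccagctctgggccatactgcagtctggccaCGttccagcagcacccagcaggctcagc
Ypel3, GRCm38.p6 chr7:126776713-126776954, plus strand: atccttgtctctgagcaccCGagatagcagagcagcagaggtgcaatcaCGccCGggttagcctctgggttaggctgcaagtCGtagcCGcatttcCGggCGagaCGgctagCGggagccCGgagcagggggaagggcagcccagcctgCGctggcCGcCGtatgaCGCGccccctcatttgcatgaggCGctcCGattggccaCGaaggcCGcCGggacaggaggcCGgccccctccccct
The 170 bases before Gdpd3 hold 1 CpG and the 242 bases before Ypel3 hold 21, although their GC contents are close (62.4% and 67.8%). RefSeq promoter entries, which run from 250 bases before to 50 after a start, were found for 4 of the 5 genes, and the median over 32851 such entries is 7 CpG. The whole Gdpd3 entry holds 7 CpG, Ypel3 holds 28, the 2 Ppp4c entries 22 and 36, and the 2 Coro1a entries 10 and 19. None of these 6 entries holds the letters TATAAA on either strand, which 13.6% of all entries do.

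The order along the chromosome is Coro1a (126699773 to 126707787, minus strand), Mapk3 (126759601 to 126765819, plus), Gdpd3 (126766334 to 126775649, plus), Ypel3 (126776955 to 126780514, plus) and Ppp4c (126785866 to 126792496, minus), in GRCm38 positions. Mapk3 ends 514 nt before Gdpd3 starts, and Ypel3 starts 1305 nt after Gdpd3 ends, so the enzyme gene sits in a tight row of same-strand genes. All 5 are annotated as protein coding. Exons, introns and UTRs could not be told apart with the annotation used here.

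Some properties of the whole series touch these results. Each RNA-seq library held 22947689 to 39616596 reads in genes. On the first principal component (33.5% of the variance) the Flox libraries took values of 14.5 to 26.5 and KO 4 one of 7.5. KO 2 had -15.3, and KO 1 and KO 3 stood apart with -38.0 and -35.6. Short genes tended to read lower in KO: the median log2 difference was -0.10 in 1965 protein-coding genes spanning 3 to 10 kb, the range that holds all 5 genes here, and 0.15 in 1147 genes over 100 kb (mean of at least 50). The part of this in the values of the neighbours was not tested. The B cell markers summed to 98725 to 123042 normalized counts in KO and 111357 to 117208 in Flox. Of the T cell markers, Cd3e, Cd3d, Cd3g, Cd4, Cd8a and Trac were at 0 to 12.7 in every library, while Thy1 was at 3441 to 4675. The NK list summed to 157.8 to 205.8 in KO and 93.9 to 139 in Flox, nearly all of it Prf1, which did not overlap between the groups (log2 difference 0.66, limma adjusted p = 0.239), while Ncr1 had 0 reads. The myeloid list summed to 573.8 to 729.6 in KO and 531.2 to 627.5 in Flox, mostly Cd68 and Mpeg1, with S100a8 and S100a9 at 0. The dendritic cell list was at 3710 to 4290 and 4396 to 5104, nearly all Zbtb46 and Flt3, and Flt3 did not overlap (-0.32, limma adjusted p = 0.239), with Xcr1, Clec9a and Siglech at 0 to 12.7. The stromal and endothelial list was at 744.2 to 890 and 532 to 687.5, mostly Pecam1, which did not overlap (0.36, limma adjusted p = 0.244), with Col3a1 at 0. The erythroid and megakaryocyte list was at 6.9 to 50.8 and 36.1 to 67.1, mostly Hbb-bt, with Hba-a1, Hbb-bs and Ppbp at 0. None of the genes in these marker lists passed in limma, edgeR or limma-voom. DESeq2 called 1, a B cell marker, against 1.76% of all its genes. An unadjusted limma p under 0.05 was seen in 4 of the 8 B cell markers (50%, against 15.1% of all tested genes). Of these 4, 3 were higher and 1 lower in KO. Prf1, Flt3 and Pecam1 also had such a p, among 1, 2 and 2 tested genes in their lists. Non-overlapping groups were seen in 7.97% of all tested genes. A count of 0 reads allows up to 3 reads in a library, and the part of these levels in the results was not tested.

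Gdpd3 RNA was scarce in Flox cells and readily detected in KO cells. The normalized count, a gene's reads divided by 1 size factor per library, was 17.3, 29.7, 31.3 and 20.7 in Flox 1 to 4. In KO 1 to 4 it was 1660.5, 812.4, 1448.7 and 1104.3. Every KO library lay above every Flox library, and the lowest KO value was 26.0 times the highest Flox value. In reads, this was 20 to 34 per Flox library and 623 to 1571 per KO library. The means were 1256 ± 374 in KO and 24.8 ± 6.81 in Flox (SD, n = 4 each), a ratio of 50.8 and a difference of 5.60 (SE 0.25) on the log2 scale of the normalized count plus 1. In the authors' deposited table the log2 fold change is 5.68. KO 1 and KO 3, the libraries that stood apart, had the highest values, and without them the difference was 5.24, a shift that leaves the groups far apart. Within a genotype the values spread 2.04 times in KO and 1.81 times in Flox from lowest to highest. With bulk RNA, a change in the number of expressing cells and a change in RNA per cell cannot be told apart.

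**Figure D1:**
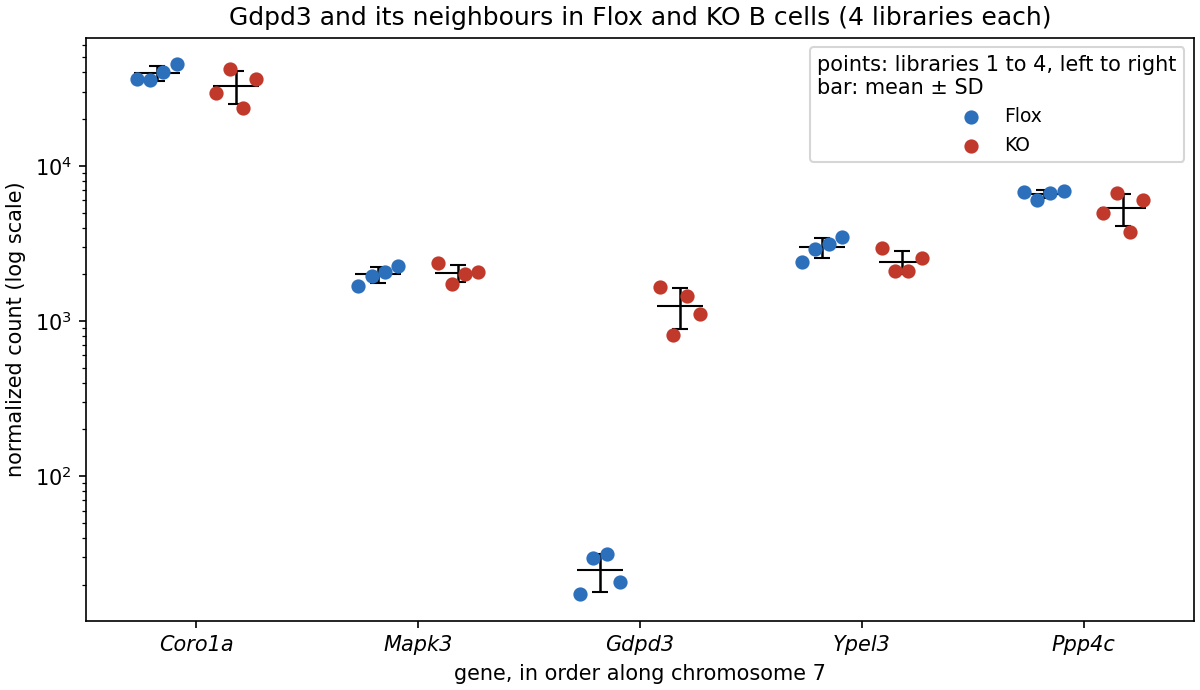
Normalized counts (log axis) of the 5 genes in order along chromosome 7, with 4 Flox (blue) and 4 KO (red) libraries per gene as points and mean ± SD as bars. Gdpd3 separates, at 17.3 to 31.3 in Flox and 812.4 to 1660.5 in KO, while the 2 groups of each neighbour overlap.

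None of the 4 neighbours passed the test, against 0.0687% of the 13091 tested genes called at a limma adjusted p of 0.05 (0.0535% higher and 0.0153% lower in KO). Their groups overlapped in all 4 cases. Groups that do not overlap were seen in 7.97% of tested genes. The edgeR, limma-voom and DESeq2 fits, which called 0.0687%, 0.0764% and 1.76% of their genes, also called 0 of the 4. Of the 4, only Ypel3 had an unadjusted limma p under 0.05, as did 15.1% of tested genes (7.39% lower and 7.74% higher in KO).

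Mapk3, which ends closest to Gdpd3, was level between the genotypes. Its normalized count was 2380.3, 1727.9, 1996.8 and 2063.8 in KO 1 to 4. In Flox 1 to 4 it was 1684.5, 1962.3, 2066.8 and 2263.6. The highest and the next to lowest of the 8 values are both from KO, with the means at 2042 ± 268 and 1994 ± 241 (SD, n = 4 each). The log2 difference of 0.03 (SE 0.12, limma adjusted p = 0.911) had a 95% interval of -0.23 to 0.29, or 0.856 to 1.22 fold, and its sign turned without KO 1, without Flox 1, and without KO 1 and KO 3 together (-0.04, -0.05 and -0.07). The interval of this upstream neighbour leaves out any difference near the size of that of Gdpd3.

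Ypel3, the next gene downstream on the same strand, was at 2943.7, 2086.5, 2090.4 and 2530.7 in KO 1 to 4. It was at 2407.2, 2890.7, 3146 and 3476.4 in Flox 1 to 4. KO 2 and KO 3 lay below all Flox libraries, and KO 1 and KO 4 lay among them. The log2 difference was -0.31 (SE 0.14), with a limma unadjusted p of 0.0474, an adjusted p of 0.326 and a 95% interval of -0.61 to -0.00413. The sign of this gene is opposite to that of Gdpd3, and it kept that sign in all 18 alternative fits (-0.41 to -0.23).

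Ppp4c and Coro1a, which lie on the minus strand on either side, were lower on average in KO without passing. Ppp4c was at 4929.7, 6645.5, 3768.1 and 6051.9 in KO 1 to 4. In Flox 1 to 4 it was at 6767.2, 6047.6, 6652.1 and 6855.8. Only KO 1 and KO 3 lay below every Flox library. The log2 difference was -0.33 (SE 0.15, limma adjusted p = 0.331, 95% interval -0.66 to 0.0016), and it was -0.05 without KO 1 and KO 3. Coro1a was at 29434.7, 41881.6, 23745 and 36478.2 in KO 1 to 4. In Flox 1 to 4 it was at 36469.9, 35753.3, 40505.5 and 45163.6. Again KO 1 and KO 3 were the low libraries. The log2 difference of -0.29 (SE 0.16, limma adjusted p = 0.398, 95% interval -0.65 to 0.07) became -0.0078 without them. Both neighbours thus lay near 0 in the comparison without these libraries, in which Gdpd3 remained at 5.24.

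Across the 8 libraries Ppp4c and Coro1a ran together (Pearson r = 0.96 on log2 values), and Ypel3 ran with Mapk3 (r = 0.68). The r with Gdpd3 was 0.19 for Mapk3, -0.55 for Ypel3, -0.58 for Coro1a and -0.65 for Ppp4c. These are descriptions over 8 libraries that share the 2 genotypes and the libraries that stood apart.

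Every gene in the surrounding chromosome was then counted. Within 100 kb of Gdpd3 the table holds 18 other gene rows, of which 13 had a mean normalized count of at least 10 and were tested. Of the 13, 0 passed in limma, edgeR, limma-voom or DESeq2, and 3 (23.1%, against 15.1% of all tested genes) had an unadjusted limma p under 0.05: Slx1b (-0.33), Ypel3 (-0.31) and Hirip3 (0.26). In limma-voom and edgeR 2 had such a p (15.4%, against 14.6% and 15% of all tested genes), and in DESeq2 3 (23.1%, against 15.9%). The limma count was 0 without Flox 2, Flox 3 or Flox 4, where the share over all tested genes was 11.6%, 7.71% and 9.14%. It was 1 without KO 3 (7.69%, against 12.3% of all tested genes). It was 4 without KO 1 (30.8% against 10.5%) and 3 without KO 1 and KO 3 together (23.1% against 6.22%). The log2 differences of the 13 ran from -0.68 to 0.26 with a median of -0.29, against a median of -0.0078 over all tested genes. Of the 13, 9 were negative, beside 6747 of all 13091 tested genes. Among protein-coding genes spanning 3 to 10 kb (mean of at least 50), 69.4% were lower in KO, with a median of -0.10 and a lower quartile of -0.23. The 13 are not all of that kind. Sgf29, Aldoa, Ino80e and Taok2 span more than 10 kb, and Gm9967 is noncoding. Gdpd3, which was chosen for its difference, was at 5.60, outside the range of these 13 genes.

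Among these 13 genes, Gm9967 is a noncoding transcript model on the opposite strand that overlaps Gdpd3 itself (126768082 to 126776818). It was at 10.6, 1.3, 24.3 and 6.8 in KO 1 to 4 and at 9.8, 7.9, 20.8 and 15.5 in Flox 1 to 4, so its groups overlapped (log2 difference -0.68, SE 0.67, limma adjusted p = 0.621). Whether reads were counted by strand is not given in the sources used here, so reads from this pair cannot be told apart with certainty. Tbx6, a T-box transcription factor gene between Ypel3 and Ppp4c, was at 82.05 ± 26.7 in KO and 101.4 ± 18.9 in Flox (-0.33, adjusted p = 0.509 in limma). Aldoa, a glycolytic aldolase that has processed copies able to share reads, was at 37757 ± 4672 and 41878 ± 6434 (-0.15, adjusted p = 0.584).

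On the Coro1a side, Bola2, an iron-sulphur cluster factor whose row overlaps the end of Coro1a, was at -0.31 (SE 0.26, limma adjusted p = 0.560), and turned to 0.06 without KO 1 and KO 3. The structure-specific nuclease subunit Slx1b was at -0.33 (SE 0.13, adjusted p = 0.287), and the SAGA complex subunit Sgf29 at -0.02 (SE 0.13, adjusted p = 0.955; sign turned without KO 1 and KO 3). On the Ppp4c side, the INO80 complex subunit Ino80e was at 0.04 (SE 0.15), the histone chaperone partner Hirip3 at 0.26 (SE 0.11, adjusted p = 0.305) and the kinase Taok2 at 0.14 (SE 0.07, adjusted p = 0.368). Taok2 was the only one of the 13 whose groups did not overlap, at 2601.6 ± 129 in KO and 2353.7 ± 58.1 in Flox, a share of 7.69% beside the 7.97% of all tested genes. None of these values comes near the scale of the Gdpd3 difference.

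Within 500 kb, 47 genes other than Gdpd3 were tested. Of these, 0 passed in limma, edgeR and limma-voom, 1 in DESeq2 (1.76% over all genes), and 9 had an unadjusted limma p under 0.05 (19.1%, against 15.1% of all tested genes). Such a p was seen for 7 genes in limma-voom (14.9%, against 14.6%), 9 in edgeR (19.1%, against 15%) and 10 in DESeq2 (21.3%, against 15.9%). Leaving out Flox 2, Flox 3 or Flox 4 lowered the limma count of 9 to 3, 4 or 5. These are shares of 6.38%, 8.51% and 10.6%, beside 11.6%, 7.71% and 9.14% of all tested genes. The count rose to 10, 10 or 11 when KO 1, KO 2 or KO 4 was left out. Those shares are 21.3%, 21.3% and 23.4%, beside 10.5%, 21.1% and 19.5%. It was 7 with KO 3 dropped (14.9%, beside 12.3%). Dropping both KO 1 and KO 3 left 6 genes (12.8%, beside 6.22%). Among the lowest p-values were those of Sbk1, a kinase gene (-0.42, SE 0.12, limma adjusted p = 0.239), Rabep2, an endosomal Rab effector (-0.24, SE 0.07), and Nupr1, a stress-induced nuclear protein (-0.67, SE 0.23), with Slx1b and Hirip3 after them. Sbk1 is the gene called by DESeq2 (adjusted p = 0.0424), and the authors' deposited table gives it an adjusted p of 0.0476, where 1.58% of genes pass. Within 1000 kb DESeq2 called 2 of 70 genes, Sbk1 and Srcap, a chromatin remodeller gene named here after its value was seen (0.53, adjusted p = 0.0283). The median of the 47 was -0.15, with 35 negative and 12 positive, beside 6747 negative and 6344 positive over all tested genes. On the rest of chromosome 7, 928 genes were tested, with a median of -0.02 and 2 calls.

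**Figure D2:**
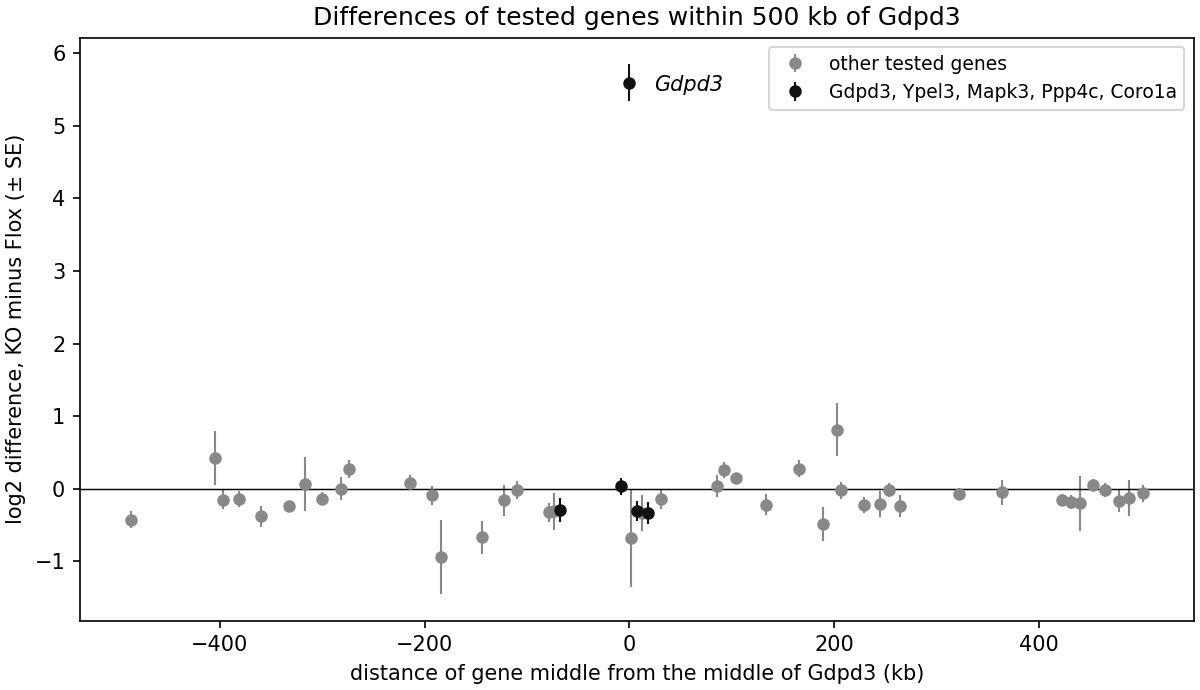
Log2 difference (KO minus Flox, ± SE) of the tested genes within 500 kb of Gdpd3, against the distance of each gene's middle from that of Gdpd3 in kb. Black points are the 5 genes described here. Gdpd3 is at 5.60, and the other genes lie between -0.94 and 0.81.

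Genes whose levels over the 8 libraries ran most like those of Gdpd3 were picked by Pearson r on log2 values, among 13090 other tested genes. The highest were Dnmt3c, a DNA methyltransferase gene (chromosome 2, r = 0.995), the pseudogene row Gm9855, which can share reads with its parent Tdg (chromosome 10, 0.988), the processed transcript Gm14636 near the deleted locus (chromosome X, 0.987), Ppp1r16b, a phosphatase 1 subunit (chromosome 2, 0.979), and Lyplal1, a lysophospholipase-like gene (chromosome 1, 0.973). None of them lies on chromosome 7. Dnmt3c was at 44.4, 22.2, 32.4 and 23.5 in KO 1 to 4 and listed at 0 in each Flox library, and it had its highest value in KO 1 and its next highest in KO 3, as Gdpd3 did. Lyplal1 was at 116.3, 100.4, 127.2 and 81.9 in KO and at 19.7 to 28.6 in Flox. Without KO 1 and KO 3 the limma calls of Dnmt3c and Lyplal1 were lost (adjusted p = 0.137 and 0.11), while their log2 differences remained at 4.58 and 1.92, against 4.93 and 2.13 with all libraries. Both genes were picked for running with Gdpd3 across the genotypes, so their calls are no separate support. Dnmt3c, Gm9855 and Gm14636 reached the mean of 10 only through their KO libraries. Gm9855 was at 109.1 to 225.5 in KO and listed at 0 in each Flox library. Gm14636 was at 188 to 304.4 in KO and 0.8 to 3.1 in Flox. The log2 difference of Dnmt3c ran from 1.99 to 7.98 over 16 alternative fits.

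The most opposite patterns were those of Pcgf5, a Polycomb subunit gene (chromosome 19, r = -0.988), the tetraspanin Tspan32 (-0.968) and the receptor Tnfrsf26 (-0.960). Pcgf5 was at 960.8, 992.4, 959.7 and 994.4 in KO 1 to 4 and at 1177.3, 1171.8, 1123.2 and 1144.7 in Flox 1 to 4. Its groups did not overlap, although the log2 difference of -0.24 (SE 0.08, limma adjusted p = 0.247) did not pass. Tspan32 and Tnfrsf26 lie on chromosome 7, beyond the window examined here. These r values rest mainly on the gap between the genotypes, since each gene was taken for following it.

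The enzyme family of Gdpd3 was examined next. Of its 6 genes, 4 were tested, and apart from Gdpd3 0 passed in limma, edgeR, limma-voom or DESeq2, and 0 had an unadjusted limma p under 0.05 (1, Gde1, without KO 2). Gdpd1, the lysophospholipase D most like Gdpd3 in activity, was at 79.3, 78.2, 143.4 and 108.4 in KO 1 to 4. It was at 104.4, 94.2, 105.4 and 97.1 in Flox 1 to 4, inside the KO range. Its log2 difference was -0.02 (SE 0.21), with a sign that turned in limma-voom, edgeR and DESeq2. Gde1, which acts on glycerophospho-N-acylethanolamines, was at 2038 ± 197 in KO and 2300.1 ± 88.0 in Flox (-0.18, SE 0.09, limma adjusted p = 0.359). Gdpd5, a surface phosphodiesterase, was at 47.5 ± 16.1 and 35.15 ± 11.1 (0.42, SE 0.30). Gdpd2 was at 0 to 6.5 in every library, and Gdpd4 had 0 reads in all 8.

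Genes that make, degrade or sense the lipids of this pathway did not pass either. Of 21 genes in the list of N-acylethanolamine and lysophosphatidic acid metabolism, 17 were tested, with 10 positive, 7 negative and a median of 0.03. In limma 0 passed, 2 had an unadjusted p under 0.05 (11.8%, against 15.1% of all tested genes; 0 without KO 1 and KO 3), and edgeR, limma-voom and DESeq2 called 0. Plpp2, a lipid phosphatase that degrades lysophosphatidic acid, had a KO mean of 498.5 ± 85.0 and a Flox mean of 712.0 ± 134 (log2 difference -0.51, SE 0.16, adjusted p = 0.244). Lpar5, a receptor for that lipid, was at 88.8, 67.8, 83.2 and 59.9 in KO and 58.6, 50.6, 32.4 and 39.3 in Flox (0.73, SE 0.24, adjusted p = 0.250). Every KO value of Lpar5 lay above every Flox value. Pld4, a phospholipase D family member, was at 0.19 (SE 0.12) and Abhd4, which acts upstream of Gde1, at -0.15 (SE 0.13). Enpp2, the secreted lysophospholipase D autotaxin, was at 0 to 2.1 in every library.

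The families and pathways of the neighbours gave few differences. In the yippee-like family 4 of 5 genes were tested and 0 passed (limma, edgeR, limma-voom and DESeq2), with 2 at an unadjusted limma p under 0.05, both lower in KO, as 7.39% of all tested genes were. This count was 0 without KO 2, Flox 2, Flox 3 or Flox 4, beside 21.1%, 11.6%, 7.71% and 9.14% of all tested genes. It was 1 without KO 1, KO 3 or KO 4, beside 10.5%, 12.3% and 19.5%. In limma-voom and edgeR it was 1 (beside 14.6% and 15%), and in DESeq2 it was 2 (beside 15.9%). The 2 genes in the main fit were Ypel3 and Ypel5. Ypel5 was at 1244.1, 1070.6, 1292.6 and 1387 in KO and 1241.2, 1550.5, 1697.5 and 1597.2 in Flox (-0.28, SE 0.12, limma adjusted p = 0.304). Ypel5 lies on another chromosome than Ypel3. Ypel2 was at -0.04 and Ypel1 at 0.06, with signs that turned when single libraries were left out, and Ypel4 was too low to test (1.1 to 13.9).

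In the ERK cascade 26 of 27 genes were tested, with a median of 0.06, 17 positive and 9 negative. In limma, edgeR and limma-voom 0 passed, and 3 had an unadjusted limma p under 0.05 (11.5%, against 15.1% of all tested genes). The latter count was 11 without KO 2, where the share over all tested genes was 21.1%, and 2 without Flox 2 or without KO 1 and KO 3. DESeq2 called 1 of the 26, against 1.76% of all its genes. This was Dusp4, a nuclear phosphatase that inactivates ERK, which was at 2979.6 to 3177.9 in KO and 3528.1 to 4013.7 in Flox (log2 difference -0.28, SE 0.07 and adjusted p = 0.239 in limma, adjusted p = 0.0283 in DESeq2). Spry2, another inhibitor of the pathway, was at -0.35 (SE 0.12), the scaffold Ksr1 at 0.25 (SE 0.09) and the ERK-responsive transcription factor Elk1 at 0.21 (SE 0.10). The groups of Dusp4, Spry2 and Ksr1 did not overlap, as was seen in 7.97% of all tested genes.

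Of the protein phosphatase 4 list 6 genes were tested, with a median of 0.0040 and 0 passing in limma, edgeR, limma-voom or DESeq2. At an unadjusted limma p under 0.05 there were 0, against 15.1% of all tested genes, a share at which so few genes tell little. Ppp4c had the lowest p of the list, while its regulatory subunits Ppp4r2, Ppp4r1 and Ppp4r3b were at -0.16, 0.10 and 0.03. The coronin family likewise had 0 calls in these fits and 0 at an unadjusted p under 0.05 among 6 tested genes (median 0.07), with Coro2b at 0.81 (SE 0.40), Coro1c at 0.14 and Coro1b at -0.11. Of 11 genes of the Arp2/3 complex and cofilin, on which coronins act, 9 were negative with a median of -0.10, and 0 passed in any of the 4 tools or had an unadjusted limma p under 0.05. With 1 library left out, each of these 3 lists held at most 2 genes at an unadjusted p under 0.05, where the share over all tested genes was 7.71% to 21.1%. The lowest p-values of the last list were those of Cfl2 (-0.24), Arpc1a (-0.21), Arpc1b (-0.15) and Arpc5l (-0.11).

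**Figure D3:**
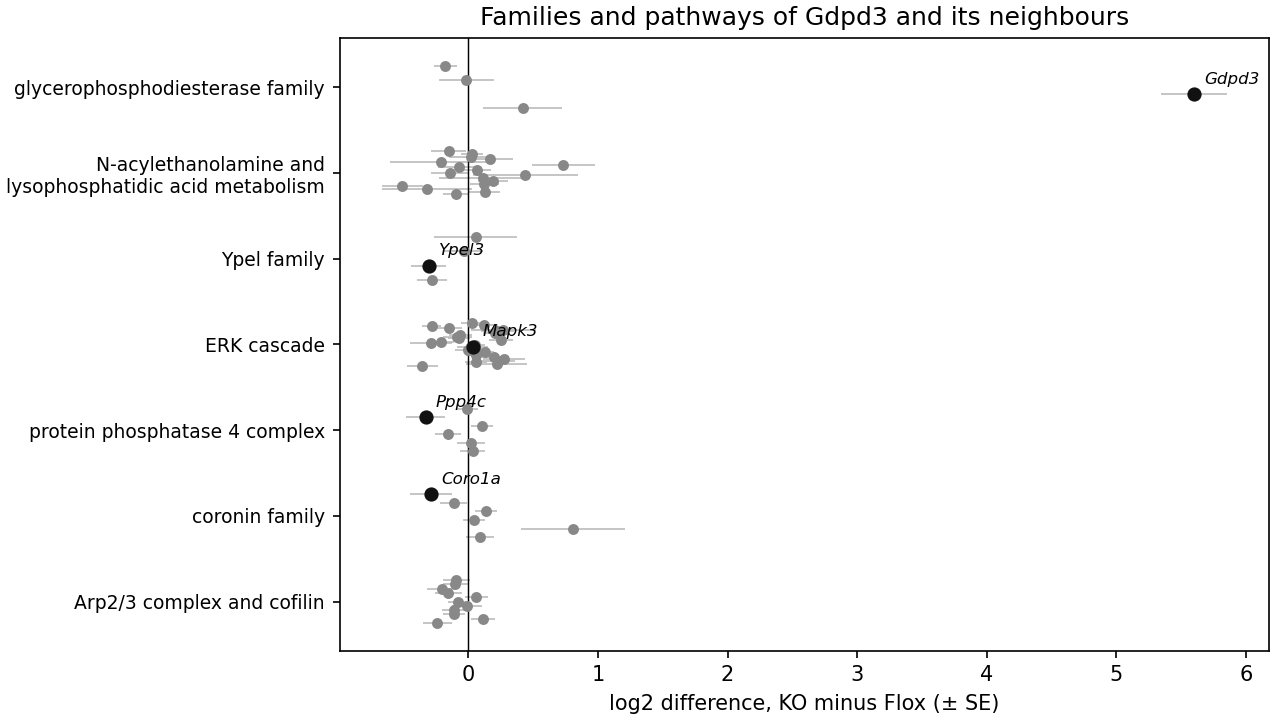
Log2 difference (KO minus Flox, ± SE) of each tested gene in the families and pathways of the 5 genes, which are drawn in black. Gdpd3 is at 5.60, and the other genes drawn lie between -0.51 and 0.81.

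Ago2 binding gave a readout of the same genes in other libraries. The deposited comparison pools the replicates of each condition and does not name which condition is KO, so its differences carry no genotype and no error. It scores 5-nt bins for the difference between the conditions and gives each bin a hidden state, here joined into 962700 stretches of 1 state. State 0 (33.1% of stretches) has negative, state 1 (57.6%) near-zero and state 2 (9.28%) positive mean differences, with medians of -0.23, -0.01 and 0.26.

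On the strand of Gdpd3 there were 4 stretches, all in state 0. They were 75 nt long at 2261 nt from the gene start, 35 nt at 5196, 30 nt at 7726 and 110 nt at 9126, the last ending 80 nt before the annotated 3′ end. Their mean differences were -0.27, -0.39, -0.35 and -0.29, which rank 121228, 11873, 22499 and 79291 by size among all stretches. The authors' scores for them were low, from 1.8 to 4.6, and together they covered 2.68% of the gene span. Over all 50 bins the mean was -0.30. Among 9159 tested protein-coding genes with at least 3 stretches, only 3 had a lower mean (Wdr19, Hist1h3g and Reln), and in 13 (0.142%) every stretch was in state 0. The minimum of 3 stretches was set after the values were seen. Gdpd3 was chosen for a difference in RNA level, so its rank is only a description. The part of RNA level in these Ago2 differences was not tested. Of the 905 genes with 4 to 6 stretches, 5 (0.552%) had every stretch in state 0.

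On the opposite strand, within Gm9967, 1 stretch of 35 nt (chromosome 7, 126771925 to 126771959) was also in state 0. Its mean difference of -0.50 ranks 984 by size among the 962700 stretches, larger than any on Gdpd3 itself. No stretch lay wholly or partly in the 514 nt between Mapk3 and Gdpd3 on the plus strand. In the 1305 nt between Gdpd3 and Ypel3 the only one was the stretch that runs across the Ypel3 start. No stretch thus ran from Gdpd3 into a gene on either side. Stretches covered only 2.68% of Gdpd3 itself, so gaps without one say little.

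The neighbours had mixed states and means nearer 0. Mapk3 had 7 stretches, 5 in state 1 and 2 in state 0, with a mean over its bins of -0.09. Its 2 state 0 stretches lie at the 3′ end, at -0.34 and -0.35, the latter ending on the last annotated base. Ypel3 had 20 stretches covering 53.7% of its span, 13 in state 1, 6 in state 0 and 1 in state 2, with a mean of -0.0057. That state 2 stretch, 210 nt long and ending 10 nt before the 3′ end, had a mean of 0.28 and the highest score on the gene (26.1). This stretch had the opposite sign to those of Gdpd3 and to the state 0 stretches of Mapk3. Just before it, a 55 nt state 0 stretch 295 nt from the 3′ end of Ypel3 was at -0.33. The 3′ part of Ypel3 thus held both signs.

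Ppp4c had 26 stretches, of which 15 were in state 1, 9 in state 0 and 2 in state 2, with a mean of -0.09. Coro1a had 51, of which 29 were in state 1, 14 in state 0 and 8 in state 2, with a mean of -0.03 and 49.2% of the span covered. On Coro1a both signs alternate along the 3′ part of the gene, where a 60 nt stretch 962 nt before the end had the largest positive mean (0.32). By mean difference from the lowest upward, Mapk3 ranks 944, Ppp4c 1173, Coro1a 6805 and Ypel3 8370 of 9159, against 4 for Gdpd3. The mean of Gdpd3 rests on 50 bins and those of its neighbours on 151 to 789. The bins of 1 gene share its RNA level in each condition, so they are not independent. Gdpd3 was chosen for its RNA level and the neighbours by position, so these ranks do not compare like with like.

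**Figure D4:**
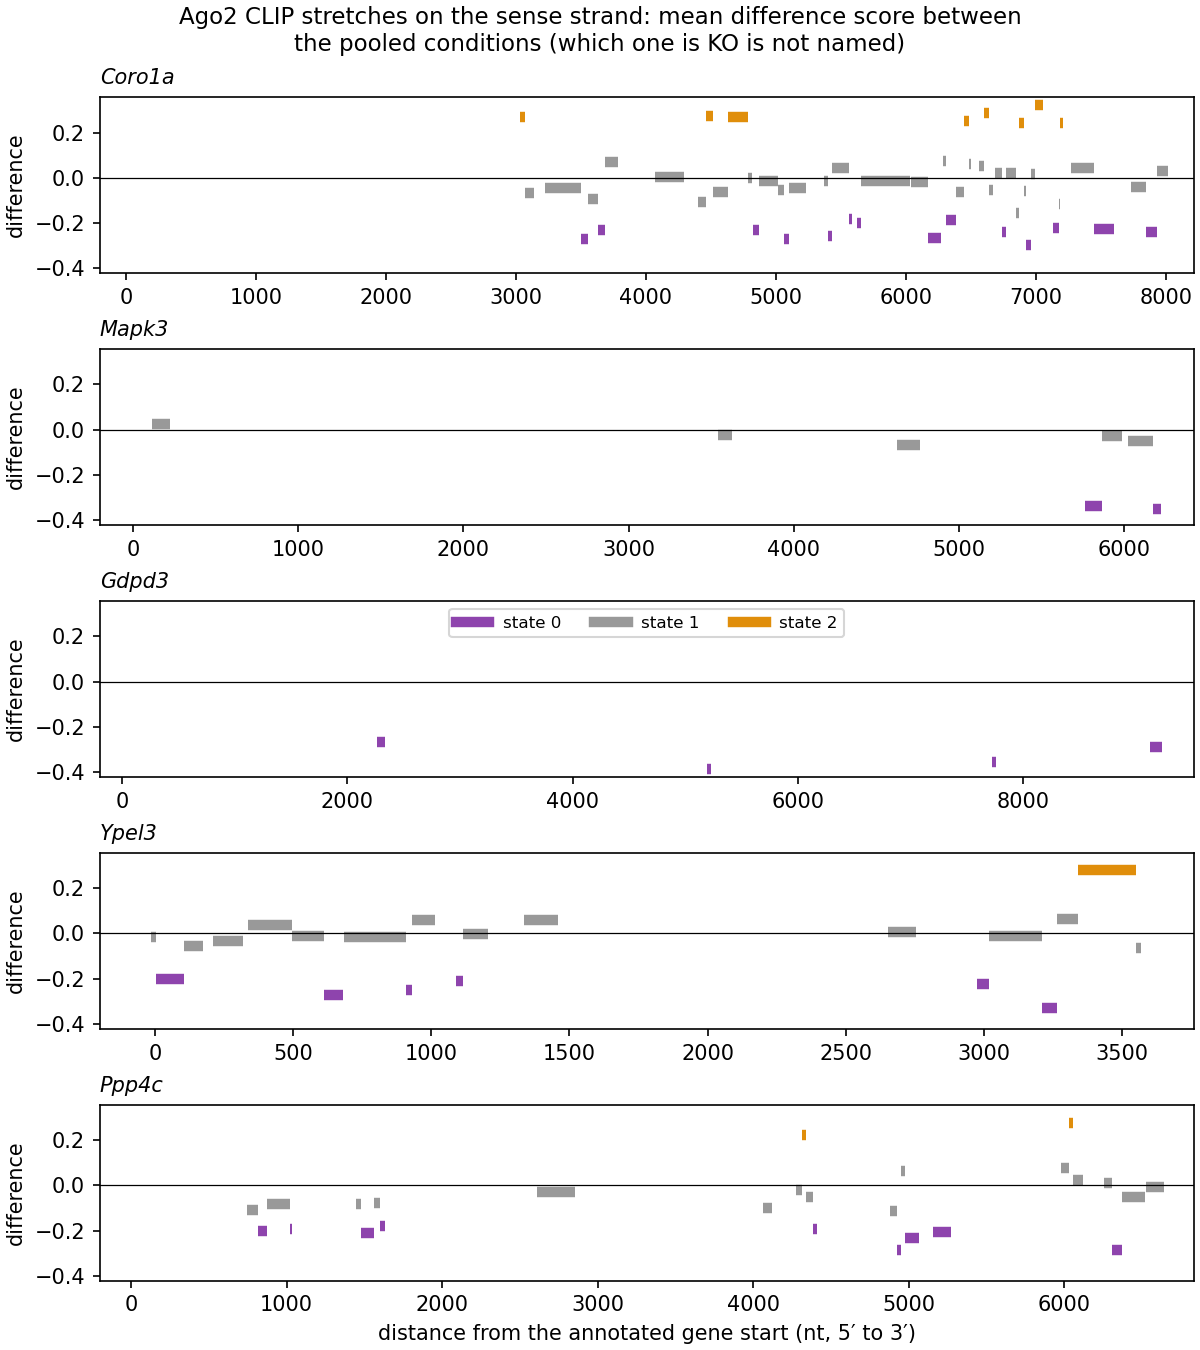
Mean difference score (vertical axis) of each sense-strand Ago2 stretch along the 5 genes, by distance from the annotated start in nt, coloured by state. The 4 stretches of Gdpd3 are all in state 0 between -0.39 and -0.27, while the other genes hold stretches near 0 and, except Mapk3, stretches in state 2.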

How the data were processed

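Per the file headers, the authors deposited normalized counts per gene for 8 RNA-seq libraries, a signal made by dividing counts by size factors, with variance-stabilized log2 values (not used), a log2 fold change and fold ratio, p-values and gene GC content in percent. The submitters' processing notes name cutadapt, Bowtie2, SAMtools, STAR, DESeq2, DESeq and mm9, without roles; gene positions are those of GRCm38. For CLIP the authors deposited a difference, a state and its probability as a fraction per 5-nt bin, and a score per stretch; 4 columns of unnamed conditions were not used.

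Whole reads were recovered from the steps of the values (100% whole within 0.1 read in each library), and edgeR run on them called 9. The 13091 genes averaging 10 or more were compared by limma-trend (limma 3.58.1, two-sided) on log2 of the value plus 1, with Benjamini-Hochberg adjustment and a threshold of 0.05. Count fits on recovered reads used edgeR 4.0.16 (quasi-likelihood), DESeq2 1.42.0 and limma-voom. The limma, limma-voom, edgeR and DESeq2 fits were also run on simulated counts, with the same dispersion for every gene and independent libraries. That setting lacks libraries that stand apart, so it does not check the calls given here. Members, lists and alternatives were chosen with earlier results of these data known. The rule for named genes took the 5 genes, tested genes within 100 kb, the 6 lowest p within 500 kb, the 5 highest and 3 lowest correlations with Gdpd3, the 4 lowest p per list, and both small families; Enpp2, Gm9967's Ago2 stretch and the genes ranked beside Gdpd3 in CLIP were added after their values were seen, as was the minimum of 3 stretches. A gene among the 6 within 500 kb is not reported here. Replicate numbers did not pair the samples.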

Additional observations from a re-analysis of the deposited data

Results flagged for a closer look

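Of 98 groups of 4 libraries, 2 groups for each of 49 named genes, 1 held a library far from the other 3, where chance flags about 1 in 20. It was the highest Flox library of Spry2, Flox 2, at 1022.6 normalized counts, and the other Flox libraries were at 756.6 to 789.3.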

How the results depend on the processing

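Ypel3, Ppp4c and Coro1a kept a negative and non-significant difference in all 18 alternative fits, and Gdpd3 ran from 5.16 (pseudocount of 10) to 5.79. Without KO 1 and KO 3 the calls of Dnmt3c and Lyplal1 were lost at log2 differences of 4.58 and 1.92 (4.93 and 2.13 with all libraries), and DESeq2 alone called Sbk1 and Dusp4. The count of calls over all genes, 9 in the main comparison, was 213 with DESeq2, 8 to 17 with 1 library left out (17 without KO 2 and 14 without KO 4), and 6 without KO 1 and KO 3. With DESeq2 1 gene within 500 kb of Gdpd3 was called, and 2 within 1000 kb; in the other settings 0 were called, and limma called 0 in windows of 250 kb and 1000 kb. With the replicate block 11 genes were called, and no neighbour passed (adjusted p from 0.344 for Ppp4c to 0.927 for Mapk3); the deviations of same-numbered libraries correlated at -0.094, -0.065, -0.05 and 0.003, so the numbers were not taken as pairs. Signs turned as follows: without KO 1 and KO 3, Mapk3 was at -0.0705, Sgf29 at 0.12 and Bola2 at 0.0554; Gdpd1 was at 0.0012 in limma-voom, 0.0327 in edgeR and 0.0311 in DESeq2. With 1 library left out the ranges were -0.0454 to 0.11 for Mapk3, -0.19 to 0.10 for Gdpd1, -0.0647 to 0.18 for Ino80e, -0.0392 to 0.0865 for Ppp4r3b, -0.10 to 0.0840 for Sgf29, -0.0533 to 0.16 for Ypel1 and -0.14 to 0.10 for Ypel2. The causes were not tested. DESeq2 gave Dnmt3c no adjusted p. The counts of Ago2 stretches on the 5 genes stayed within 2 of their main values with a width of at least 20 nt or 1 kb more at the 3′ end. In Flox, Gdpd3 rests on 20 to 34 reads per library, which limits the precision of its ratio.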
